A study of Mus musculus with 6 samples.

Results

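The integrated stress response and the unfolded protein response were examined through 37 genes in 3 mouse tumour cell lines, each with 1 sh Ctrl and 1 sh Spp1 array. The genes were chosen by symbol. The ATF4 arm holds 21 genes, which are the transcription factor Atf4, its partners and targets, and enzymes of amino acid and one-carbon metabolism. The arm of the endoplasmic reticulum (ER) holds 16 genes, which are chaperones and other targets of ATF6 and XBP1. A probe set of its own was found for 35 of the 37, 20 in the ATF4 arm and 15 in the ER arm, among 22180 genes so named on the array. The probe set that covers Pdia4 also covers a microRNA and was not used, and the expression of Gdf15 is not analysed here. All 35 passed the brightness filter, which was set on the mean over all arrays, and none lay under the floor on any array.

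RNA came from cultured LLC cells (Lewis lung carcinoma), AE17 cells (malignant mesothelioma) and MC38 cells (colon adenocarcinoma), grown in medium with fetal bovine serum. A short hairpin RNA (shRNA) against Spp1, the gene of the secreted glycoprotein osteopontin, defines the sh Spp1 arrays, which are labelled Spp1 depletion. The sh Ctrl arrays are labelled wild type, so whether the controls carried a control hairpin cannot be told from the labels. Each line and shRNA is 1 culture on 1 array, and whether the cells were a clone or a pool is not given in the labels. Spp1 is named by 0 of the probe sets used and was not analysed here, so each direction rests on the labels.

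When unfolded protein builds up in the ER, 3 sensors respond. PERK, like other kinases that sense amino acid lack or double-stranded RNA, phosphorylates eIF2alpha, which slows most translation while that of ATF4 goes up, and ATF4 then turns on amino acid transport, synthesis and feedback genes. ATF6 and IRE1, the latter through splicing of the Xbp1 message, raise chaperones, folding enzymes and the machinery of ER-associated degradation. Tumour cells use both arms under nutrient lack and high secretory load.

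Levels are log2 intensities after quantile normalisation, and a ratio is sh Spp1 over sh Ctrl within a line on that scale. The number of arrays limits the precision, and a ratio within a line has no replicate. The arrays of AE17 were less alike (r = 0.939 over probe sets) than those of LLC (0.979) and MC38 (0.982), and the SD of the ratios over all genes was 0.93 in AE17 against 0.45 and 0.42. In AE17 the keratin Krt8, an epithelial marker, also differed between the arrays by -4.61, and the mesothelial marker Pdpn by 2.76. The lists that hold them had median ratios in AE17 of -0.09 (intestinal) and 0.01 (mesothelial). Their summed log2 levels did move in AE17, from 11.26 to 8.14 (intestinal) and from 8.76 to 10.32 (mesothelial). Krt20 of the intestinal list differed there by -3.04 and Gata6 of the mesothelial list by 2.76. Cdx2 and Bnc1 of the same lists went the other way, by 0.38 and -1.21. Above the floor, a log2 intensity of 4.49, on every array were 3 of 6 lung epithelial, 5 of 8 mesothelial and 4 of 8 intestinal markers. Under it on all 6 arrays were Scgb1a1 and Epcam of the lung list, Calb2 of the mesothelial and Epcam of the intestinal list. Msln, of the mesothelial list, was brighter in MC38 (9.87 and 9.96) than in AE17 (5.13 and 5.34), the line labelled mesothelioma. Wt1 of that list was alike in the 2 lines, at 5.71 and 5.65 in MC38 and 5.83 and 5.64 in AE17. The origin of the lines was not tested. The summed log2 level of the intestinal list was 8.13 to 11.26 on the sh Ctrl and 8.14 to 8.99 on the sh Spp1 arrays, and that of the mesothelial list 8.76 to 11.20 and 8.88 to 11.22. Of 8 leukocyte markers measured, 3 were above the floor on every array and Ptprc and Adgre1 under it on every array. In AE17 the ratios of Cd68, Cd14 and Lyz2 were 1.40, 1.04 and -2.38, and the summed level of the leukocyte list was 8.19 to 9.15 on the sh Ctrl and 8.53 to 9.54 on the sh Spp1 arrays. Of 6 endothelial markers 3 were above the floor on every array and Tek and Emcn under it on every array, with a summed level of 7.30 to 7.93 on the sh Ctrl and 7.26 to 7.30 on the sh Spp1 arrays. The part of these markers in the values that follow was not tested.

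The first comparison asked whether these genes differ with the shRNA over the 3 lines. In limma, blocking on the line, 0 of 35 members and 0 of 16797 genes had a Benjamini-Hochberg adjusted p under 0.05 (smallest 0.723). Where the unadjusted p was under 0.05, which held for 6.05% of all genes (1017), lay 4 of 20 genes of the ATF4 arm and 0 of 15 of the ER arm. Those 4, Atf5, Cebpb, Sesn2 and Ppp1r15a, were the members of the ATF4 arm that were higher with sh Spp1 in all 3 lines (20%). The p and the shared sign rest on the same 3 ratios of a gene, so they are not separate observations. Of that arm 0 genes were lower in every line. Over all genes 16.8% were higher and 15.5% lower in every line. In the ER arm Sel1l was higher and Pdia6 lower in every line. For a single gene, exact sign flipping over 3 pairs gives no p smaller than 0.25.

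**Figure D1:**
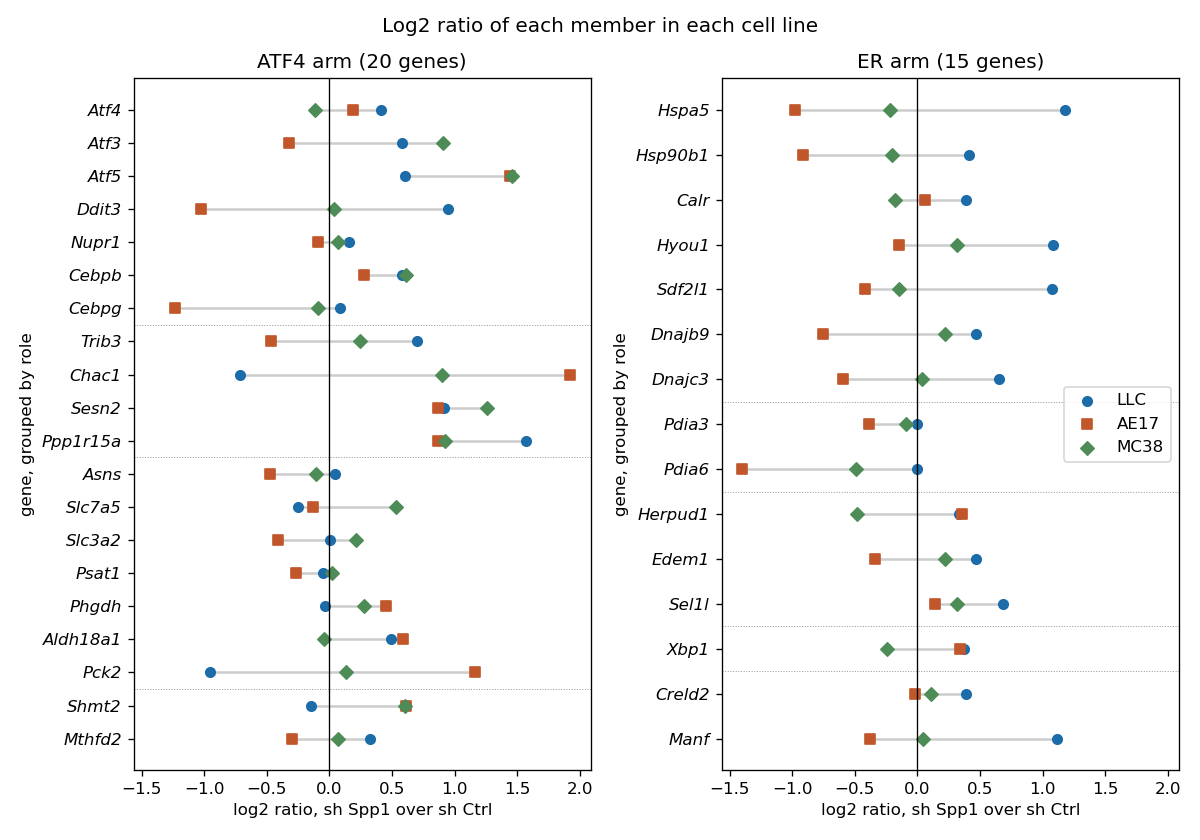
The log2 ratio of sh Spp1 over sh Ctrl (horizontal axis) for each of the 35 measured genes, with 1 point per cell line and a grey line from the lowest to the highest, and dotted lines between roles. Sesn2 and Ppp1r15a lie right of 0 in all 3 lines, while most ER genes spread from AE17 on the left to LLC on the right.

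The arms differed in how the lines compared. The ER arm had a median ratio of 0.47 (LLC), -0.38 (AE17) and -0.09 (MC38), where all tested genes had 0.03, -0.04 and 0.02. In LLC 13 of its 15 genes were above 0, and in AE17 11 were below. The ATF4 arm had medians of 0.24, 0.05 and 0.23, with 14, 10 and 16 of 20 genes above 0. The median of the ATF4 arm minus that of the ER arm was -0.23 (LLC), 0.42 (AE17) and 0.32 (MC38), with a mean of 0.17 ± 0.35 (SD, n = 3 lines). These are descriptions without a test, since the lists were chosen with results known and each line has 1 pair.

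**Figure D2:**
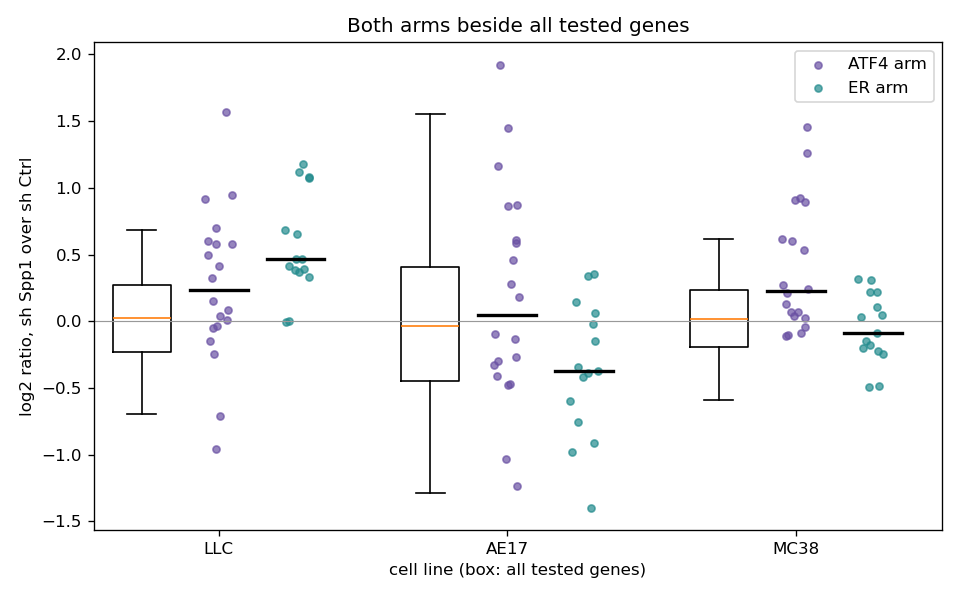
Log2 ratios of sh Spp1 over sh Ctrl (vertical axis) by cell line, where the box spans the quartiles of all tested genes with whiskers from the 5th to the 95th percentile, points are the genes of each arm and black bars their medians. The bar of the ER arm stands at 0.47 in LLC and at -0.38 in AE17, and that of the ATF4 arm between 0.05 and 0.24.

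By size within a line, 4 of 15 ER genes were higher by at least 1 log2 unit in LLC, or 26.7%, where 1.75% of the genes above the floor on either array were. They were Hspa5, Hyou1, Sdf2l1 and Manf. The ATF4 arm had 1 of 20 there, Ppp1r15a. In AE17 3 genes of the ATF4 arm, Atf5, Chac1 and Pck2, were higher by that much (15%, against 9.9% of all genes) and 2, Ddit3 and Cebpg, lower (10%, against 8.71%). In the ER arm of AE17 0 were higher and 1, Pdia6, was lower. In MC38 2 genes of the ATF4 arm, Atf5 and Sesn2, were higher (10%, against 0.882% of all genes), and 0 of the ER arm passed in either direction. In LLC and MC38 0 members were lower by that much, where 1.81% and 1.7% of all genes were. At 0.5 log2 units, 7 of 20 genes of the ATF4 arm and 6 of 15 of the ER arm were higher in LLC (35% and 40%, against 11.3% of all genes), and 2 and 0 lower (against 10.1%). In AE17 7 and 0 were higher (against 21.5%) and 2 and 5 lower (against 22.9%). In MC38 8 and 0 were higher (against 8.79%), and 0 of either arm lower (against 7.39%).

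The 20 genes of the ATF4 arm with a promoter in the RefSeq table of build GRCm38.p6 were searched for the C/EBP-ATF element TGATGNAA on both strands, the composite site at which ATF4 pairs with a C/EBP protein. The table gives 250 bases before and 50 after each transcript start, and 34 of the 37 members have an entry, all but Hyou1, Manf and Slc7a5. The 20 are thus not the 20 measured genes, since they include Gdf15, which has no ratio here. The 14 of the ER arm likewise include Pdia4. The element was in 6 of the 20, Asns, Atf3, Chac1, Nupr1, Pck2 and Trib3, and in 1 of 14 genes of the ER arm, Herpud1, against 3.97% of all 32851 promoters and 3.07% of the 13011 tested genes with one. Shown are the 4 of the ATF4 arm with the largest mean ratio in either direction, since they carry the named site of this arm, with the element in capitals. TTGCATCA and TTACATCA are the element read on the other strand.
Chac1 (chr2:119351029-119351076, plus strand): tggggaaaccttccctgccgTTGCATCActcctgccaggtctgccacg
Atf3 (chr1:191183416-191183463, minus strand): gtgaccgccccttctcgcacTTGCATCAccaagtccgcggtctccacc
Asns (chr6:7693210-7693252, minus strand): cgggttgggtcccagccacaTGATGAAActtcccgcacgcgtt
Trib3 (chr2:152344029-152344056, minus strand): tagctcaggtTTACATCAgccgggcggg
The element lies 193 to 186 bases upstream of the start in Chac1, 110 to 103 in Atf3 and 23 to 16 in Asns, and at bases 15 to 22 of the transcript in Trib3. The ratios of the 6 genes that hold it ran from -0.95 (Pck2) to 0.70 (Trib3) in LLC, from -0.47 to 1.92 (Chac1) in AE17 and from -0.10 (Asns) to 0.91 (Atf3) in MC38. A match is a description of letters, not of binding. The arm was chosen to hold targets of ATF4, so its share of the element cannot serve as a test.

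Among the transcription factors of the ATF4 arm, Atf4 (Entrez gene 11911), whose product is set mainly by translation, had a direction that moved with the scaling. Its level was 9.81 and 10.23 on the sh Ctrl and sh Spp1 arrays of LLC, 9.77 and 9.96 (AE17), and 10.09 and 9.98 (MC38). The 3 ratios, 0.41, 0.19 and -0.11, did not share a sign, and the mean was 0.16 ± 0.26 (SD, n = 3 lines). As deposited and relative to all genes, Atf4 was higher in every line, at 1.02, 0.57 and 0.21, with a mean of 0.60 ± 0.40. Atf5 (Entrez gene 107503), a related factor that is itself translated under stress, went from 7.65 to 8.25 (LLC), 6.89 to 8.33 (AE17) and 7.73 to 9.18 (MC38). Every sh Spp1 array lay above every sh Ctrl array, and the ratios of 0.60, 1.45 and 1.46 are 1.52-, 2.72- and 2.74-fold. The mean was 1.17 with a standard error of 0.25, an unadjusted p of 0.0060 and an adjusted p of 0.723 in limma.

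Ddit3, which encodes the pro-apoptotic factor CHOP, went in opposite directions. It went from 9.23 to 10.17 in LLC and from 8.86 to 7.83 in AE17, and stayed between 9.73 and 9.77 in MC38. Atf3, an ATF4-induced factor, had 8.37 and 8.95 (LLC), 8.64 and 8.32 (AE17), and 7.12 and 8.03 (MC38). Both MC38 levels of Atf3 lay below all 4 of the other lines. Cebpb, a partner of ATF4 and CHOP, had ratios of 0.58, 0.28 and 0.61 in LLC, AE17 and MC38, with a mean of 0.49 ± 0.19 and an unadjusted p of 0.042 in limma. Cebpg, which dimerises with ATF4, had 0.08, -1.23 and -0.09. Nupr1, a small stress-induced chromatin protein, had 0.15, -0.09 and 0.07.

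The feedback and stress effectors had the highest median among the roles of the 37 genes in each line, at 0.81, 0.87 and 0.91 in LLC, AE17 and MC38 over 4 genes. Sesn2 (Entrez gene 230784), a leucine sensor that restrains mTORC1, went from 8.75 to 9.66 (LLC), 7.80 to 8.67 (AE17) and 7.63 to 8.89 (MC38). The ratios were alike in the 3 lines at 0.92, 0.87 and 1.26, although the LLC sh Ctrl level lay above the AE17 sh Spp1 level. The mean was 1.02 ± 0.21 (SD, n = 3 lines) with a standard error of 0.18, an unadjusted p of 0.0030 and an adjusted p of 0.723 in limma. Sesn2 is also a target of p53. Ppp1r15a (Entrez gene 17872), which encodes GADD34 and brings the phosphatase back to eIF2alpha, went from 8.15 to 9.72 (LLC), 7.0 to 7.87 (AE17) and 7.95 to 8.88 (MC38). That is 2.97-, 1.82- and 1.90-fold, and the mean was 1.12 with a standard error of 0.22, an unadjusted p of 0.0044 and an adjusted p of 0.723 in limma.

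Chac1, which degrades glutathione, varied most between lines. It went from 8.85 to 8.14 (LLC), 7.39 to 9.31 (AE17) and 9.57 to 10.46 (MC38), so LLC had the reverse sign. Trib3, a pseudokinase that inhibits ATF4 and AKT, had 0.70, -0.47 and 0.24 in LLC, AE17 and MC38, the order of Ddit3 and not that of Chac1.

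**Figure D3:**
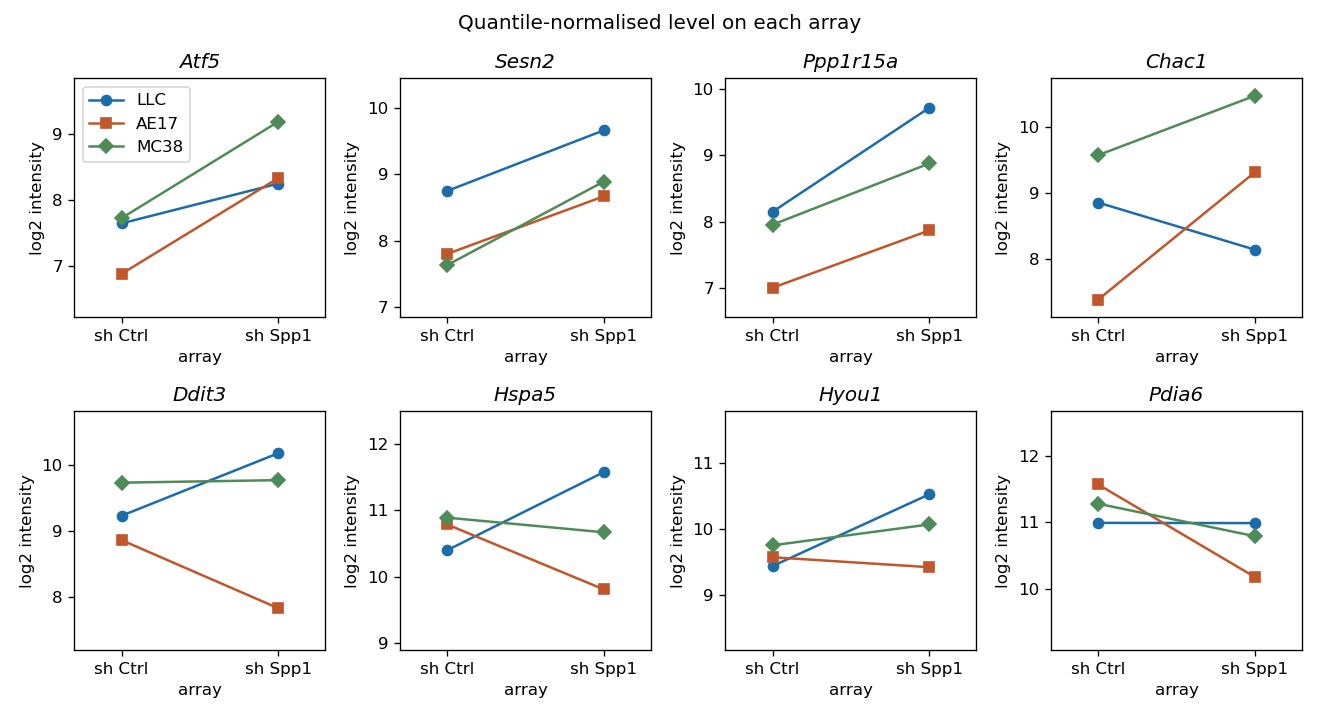
Quantile-normalised log2 intensity (vertical axis, a span of equal length in each panel) on the sh Ctrl and sh Spp1 arrays of 8 genes, with 1 line per cell line joining its 2 arrays. Atf5, Sesn2 and Ppp1r15a slope upward in all 3 lines, Ddit3 and Hspa5 slope upward in LLC and downward in AE17, and Chac1 does the opposite.

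After quantile normalisation, the enzymes and transporters among the members had medians closer to 0 than the effectors. Of the 7 genes of amino acid transport and synthesis, 0 had the same sign in every line, and the medians were -0.04, -0.13 and 0.13 in LLC, AE17 and MC38. As deposited and relative to all genes, the medians of the 7 were 0.70, 0.25 and 0.39, and Slc7a5, Psat1, Phgdh and Aldh18a1 were higher in every line. The mean of Psat1 was then 0.38 and that of Asns 0.29, against -0.10 and -0.18 after quantile normalisation. Asns, asparagine synthetase, had 11.80 and 11.84 (LLC), 11.66 and 11.18 (AE17), and 11.68 and 11.58 (MC38). Slc7a5 and Slc3a2 form the large neutral amino acid exchanger. Slc7a5 had ratios of -0.25, -0.13 and 0.54, and Slc3a2 had 0.01, -0.41 and 0.21. In the serine pathway, Phgdh had -0.04, 0.46 and 0.28 and Psat1 -0.05, -0.27 and 0.02. Aldh18a1, of proline synthesis, had 0.49, 0.59 and -0.04. Pck2, the mitochondrial phosphoenolpyruvate carboxykinase, was the exception in size. It went from 9.60 to 8.64 in LLC and from 8.61 to 9.77 in AE17, with 9.22 and 9.35 in MC38, the pattern of Chac1. Of the mitochondrial one-carbon enzymes, Shmt2 had -0.15, 0.61 and 0.60 and Mthfd2 0.32, -0.29 and 0.07.

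In the ER arm, 6 of 14 genes with a promoter entry held the ER stress response element, CCAAT then 9 bases of any kind then CCACG, the site where NF-Y and ATF6 or XBP1 bind, on either strand. Among all promoters 0.119% did, and 0.154% of the tested genes. None of the 20 promoters of the ATF4 arm held it. The 6 were Calr, Creld2, Dnajc3, Hsp90b1, Hspa5 and Pdia6, and Herpud1 held the ER stress response element II (ATTGG, 1 base of any kind, CCACG), found in 0.0365% of promoters. The unfolded protein response element TGACGTGG was in 0 members and in 0.676% of promoters. The ER arm was chosen to hold targets of ATF6 and XBP1, so its shares of these elements cannot serve as a test. Shown are the 4 genes with the largest mean ratio in either direction and Hspa5, which was chosen after its values were seen, each with the element in capitals.
Pdia6 (chr12:17266471-17266529, plus strand): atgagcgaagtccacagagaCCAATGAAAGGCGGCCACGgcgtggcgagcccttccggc
Hsp90b1, distal (chr10:86705618-86705676, minus strand): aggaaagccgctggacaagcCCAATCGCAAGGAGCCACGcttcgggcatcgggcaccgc
Hsp90b1, proximal (chr10:86705513-86705571, minus strand): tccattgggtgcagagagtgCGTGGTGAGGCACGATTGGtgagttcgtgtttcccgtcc
Creld2 (chr15:88819500-88819558, plus strand): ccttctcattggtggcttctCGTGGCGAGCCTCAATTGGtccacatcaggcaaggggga
Calr (chr8:84847055-84847113, minus strand): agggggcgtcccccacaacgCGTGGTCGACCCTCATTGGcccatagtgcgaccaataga
Hspa5 (chr2:34772005-34772063, plus strand): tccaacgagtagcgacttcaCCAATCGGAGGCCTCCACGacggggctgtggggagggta
The element starts 98 bases upstream of the transcript in Pdia6, 212 and 107 in Hsp90b1, 126 in Creld2, 162 in Calr and 65 in Hspa5. The ratios of the 6 genes that hold it ran from -0.0036 (Pdia6) to 1.18 (Hspa5) in LLC, from -1.40 (Pdia6) to 0.06 (Calr) in AE17 and from -0.49 to 0.11 in MC38.

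Of the 7 chaperones and co-chaperones, 7 were above 0 in LLC and 6 below 0 in AE17, with medians of 0.65, -0.59 and -0.15 in LLC, AE17 and MC38. Hspa5 (Entrez gene 14828), which encodes BiP, the main ER chaperone and a brake on all 3 sensors, went from 10.40 to 11.58 (LLC), 10.79 to 9.81 (AE17) and 10.89 to 10.67 (MC38). The 3 sh Ctrl levels lay between 10.40 and 10.89, and the highest and lowest levels were both on sh Spp1 arrays. As deposited, the Hspa5 intensities were 1478 against 3966 (LLC), 1319 against 729 (AE17) and 1808 against 2031 (MC38). Its mean ratio was -0.01 ± 1.10 (SD, n = 3 lines).

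Hyou1, a large chaperone and exchange factor of BiP, went from 9.44 to 10.53 (LLC), 9.58 to 9.43 (AE17) and 9.76 to 10.07 (MC38). Sdf2l1, part of a BiP complex, had ratios of 1.07, -0.42 and -0.15. Hsp90b1, the ER form of Hsp90, had 0.41, -0.91 and -0.20, and the lectin chaperone Calr 0.39, 0.06 and -0.18. The BiP co-chaperones Dnajb9 and Dnajc3 had 0.47, -0.75 and 0.22, and 0.65, -0.59 and 0.04. Only Calr was above 0 in AE17 among the 7.

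The disulfide isomerases, which form and reshuffle protein disulfides, lay near 0 in LLC after quantile normalisation but at 0.73 (Pdia6) and 0.78 (Pdia3) as deposited and relative to all genes. Pdia6 had 10.99 on both LLC arrays, went from 11.57 to 10.18 (AE17) and from 11.28 to 10.79 (MC38). Its mean of -0.63 ± 0.71 had an unadjusted p of 0.10 in limma. Pdia3 had 0.00, -0.39 and -0.09. In ER-associated degradation, Sel1l, the adaptor of the ubiquitin ligase Hrd1, had 0.69, 0.14 and 0.31, with a mean of 0.38 ± 0.28 and an unadjusted p of 0.11 in limma. Edem1, which directs misfolded glycoproteins out of folding, had 0.47, -0.34 and 0.22, and a dim second probe set had 0.40, -0.15 and 0.94. Herpud1 had 0.34, 0.35 and -0.48.

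Xbp1, whose message IRE1 splices, went from 10.55 to 10.91 (LLC), 10.06 to 10.40 (AE17) and 10.90 to 10.65 (MC38). A gene-level probe set does not separate the spliced from the unspliced form. Of the secreted ER stress proteins, Manf went from 6.46 to 7.58 (LLC), 7.34 to 6.96 (AE17) and 6.61 to 6.65 (MC38), and Creld2 had ratios of 0.39, -0.02 and 0.11.

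How the arrays are scaled moved these values. As deposited, the arrays do not share 1 distribution, and all genes together had a median ratio of -0.46 (LLC), -0.23 (AE17) and 0.08 (MC38). The log2 span from the 10th to the 90th percentile was wider on each sh Spp1 array than on its sh Ctrl array. It was 6.7334 against 5.9895 (LLC), 6.5567 against 6.0033 (AE17) and 6.5745 against 6.0488 (MC38). The part of this wider span in any value given as deposited was not tested. Relative to those medians, the ATF4 arm as deposited stood at 0.82, 0.43 and 0.46, against 0.21, 0.09 and 0.21 after quantile normalisation. The ER arm stood at 1.11, -0.02 and 0.10, against 0.44, -0.34 and -0.11, so the lower level in AE17 was near 0 as deposited and the sign in MC38 turned. The difference between the arms moved less, at -0.29, 0.44 and 0.36 as deposited. Relative to all genes, 13 of 20 genes of the ATF4 arm were then higher in every line, as were 6 of 15 of the ER arm and 24.2% of all genes. The further ATF4 and ER lists described below rose likewise, with 26 of 48 and 33 of 49 genes higher in every line. These counts were not set against genes of like brightness, so they do not show a rise particular to either arm. The 13 were Atf5, Cebpb, Sesn2 and Ppp1r15a with Atf4, Atf3, Nupr1, Slc7a5, Psat1, Phgdh, Aldh18a1, Shmt2 and Mthfd2, and Pdia6 was no longer lower in every line.

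**Figure D4:**
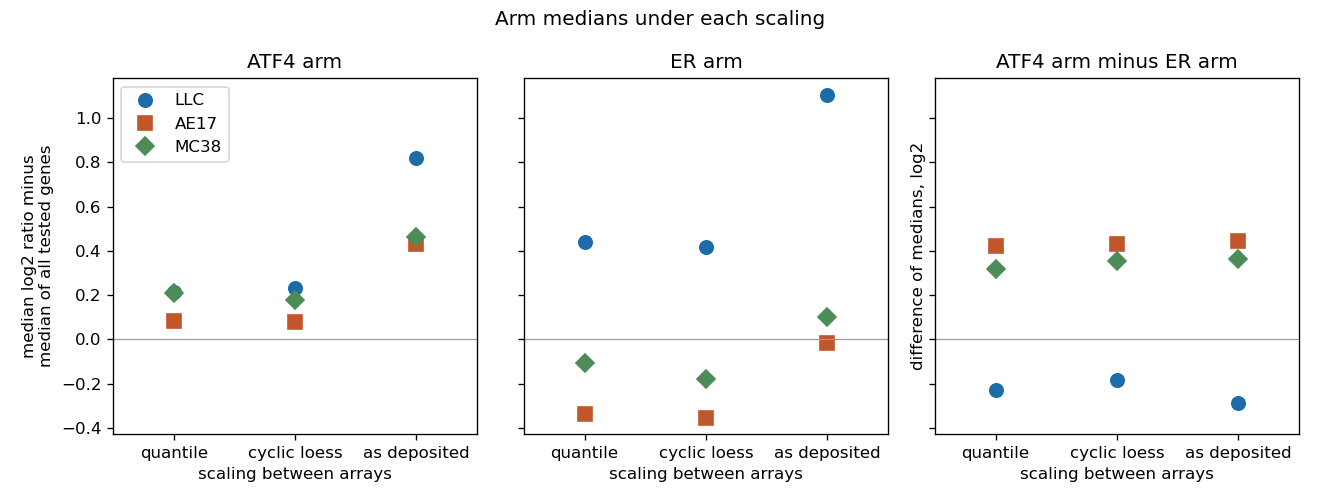
The median log2 ratio of each arm minus that of all tested genes, and the difference between the arms (vertical axes), by cell line under 3 scalings of the arrays (horizontal axes). The first panels shift upward as deposited, to 1.11 for the ER arm in LLC, while in the last panel LLC stays below 0 and AE17 and MC38 above it.

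With the less alike AE17 arrays left out, 10 of 20 genes of the ATF4 arm were higher in both LLC and MC38, or 50%, and 0 lower, against 30.2% and 25.1% of all genes. In the ER arm 7 of 15 were higher in both, or 46.7%, and 1, Pdia6, was lower. In limma without AE17 0 members were called and 6 of 35 had an unadjusted p under 0.05, as did 7.57% of all genes.

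The second comparison asked where the lines differ, as a mean over the sh Ctrl and sh Spp1 arrays of each line. From the same limma model, 0 of 16797 genes were called in each of the 3 contrasts. At an unadjusted p under 0.05 lay 3 of 35 members for MC38 over LLC, 7 for AE17 over LLC and 5 for MC38 over AE17, where 11.5%, 12.8% and 13.2% of all genes (1936, 2153 and 2209) did. For AE17 over LLC 6 of those 7 belonged to the ATF4 arm and were lower in AE17. Ppp1r15a had a difference of -1.50 with a standard error of 0.27 and an adjusted p of 0.251 in limma, and both AE17 levels lay below both of LLC. Ddit3 had -1.35, Trib3 -1.0, Sesn2 -0.97, Cebpb -0.78 and Mthfd2 -0.65. Creld2, of the ER arm, was the seventh, with 0.70. Some of these differences lay mostly on the sh Spp1 arrays. Ddit3 had 8.86 (AE17) and 9.23 (LLC) on sh Ctrl, against 7.83 and 10.17 on sh Spp1. Trib3 had 8.09 and 8.50 on sh Ctrl, against 7.62 and 9.20 on sh Spp1, and Mthfd2 10.19 and 10.53, against 9.89 and 10.85. Sesn2 differed on both, with 7.80 and 8.75 on sh Ctrl and 8.67 and 9.66 on sh Spp1. Trib3 and Ddit3 were also lower in AE17 than in MC38, by differences of MC38 over AE17 of 1.17 and 1.40.

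Between MC38 and LLC, Sesn2 had -0.95 and Atf3 -1.08. Dnajc3 was at 10.06 and 10.09 in MC38 against 8.61 and 9.26 in LLC, a difference of 1.14 with a standard error of 0.35 and an adjusted p of 0.345 in limma. Edem1 had 11.07 and 11.28 in MC38, above the 4 other arrays at 10.06 to 10.71. Of the settings tried, 2 gave a member a call. As deposited, on arrays that do not share a distribution, Ppp1r15a had an adjusted p of 0.0382 in limma for AE17 over LLC. In that contrast 103 of 16796 genes were called. Without the AE17 arrays, Atf3 had an adjusted p of 0.0421 in limma for MC38 over LLC, where 1032 genes were called.

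The other genes of both pathways, taken from textbook membership, were also without a call in limma. Of 48 further ATF4 pathway genes tested, 15 (31.2%) were higher and 3 (6.25%) lower in every line, against 16.8% and 15.5% of all genes, with medians of 0.16, 0.20 and 0.11 in LLC, AE17 and MC38. An unadjusted p under 0.05 was found for 6 of the 48 and for 6.05% of all genes. As deposited and relative to all genes, 26 of the 48 were higher and 3 lower in every line, against 24.2% and 24.9% of all genes. The aminoacyl-tRNA synthetases, which charge tRNAs, held 5 of the 15 among 13 tested (38.5%), and 0 were lower in every line. The 7 further amino acid transporters tested had medians of 0.25, 0.94 and 0.28, above the median of the effectors in AE17, and 4 of them (57.1%) were higher in every line. The highest means of the list were those of Vldlr, a lipoprotein receptor, at 1.29 ± 2.21 (SD, n = 3 lines), the pro-apoptotic Bbc3 at 0.62 ± 0.55 and the valyl-tRNA synthetase Vars at 0.57 ± 0.11. Vldlr had 0.86, 3.68 and -0.69, and without AE17 its mean relative to all genes was 0.07. Its levels of 4.90 and 4.21 in MC38 and 4.86 on the AE17 sh Ctrl array lay near or under the floor of 4.49. Vars had 0.46, 0.69 and 0.56. The lowest were Eif2ak2, the kinase PKR, which interferon induces, at -0.91 ± 0.59, the oxidase Ero1a at -0.47 ± 0.95 and Klhl24 at -0.41 ± 0.25. Ero1a had -0.02, -1.57 and 0.16, and without AE17 its mean relative to all genes was 0.05.

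Of 49 further ER stress genes tested, 13 (26.5%) were higher and 3 (6.12%) lower in every line, against 16.8% and 15.5% of all genes, with medians of 0.25, 0.06 and 0.01. An unadjusted p under 0.05 was found for 5 of the 49, against 6.05% of all genes. As deposited and relative to all genes, 33 of the 49 were higher and 1 lower in every line, against 24.2% and 24.9%. The highest means were those of the ER membrane protein Wfs1 at 1.22 ± 1.10, the prolyl isomerase Fkbp11 at 0.69 ± 0.56 and Atf6b, a relative of ATF6, at 0.68 ± 0.12. Wfs1 had 1.06, 2.39 and 0.20, and without AE17 its mean relative to all genes was 0.61. Atf6b had 0.73, 0.54 and 0.76. The lowest were Hspa13 at -0.55 ± 0.19, the reductase Dnajc10 at -0.40 ± 0.21 and Edem3 at -0.40 ± 0.82. Edem3 had 0.34, -1.28 and -0.26, and without AE17 its mean relative to all genes was 0.02.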

How the data were processed

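Biotin-labelled RNA was hybridised to 1-colour arrays. The authors deposited linear intensity values for 41345 probe sets on 6 arrays; RMA is named in the submitters' processing notes and GeneSpring GX 12.5 in the design text. The members and lists were chosen with earlier results of these data known. Values were log2 transformed and quantile normalised with limma 3.58.1 in R 4.3.3. Genes came from the platform annotation (23521 probe sets with 1 symbol, 1814 with several, 16010 with none), and Ero1l, Vimp and Selk were taken under their current symbols. Of the singly named probe sets, those whose mean over the arrays reached the 30th percentile were kept (17757), and the brightest represented each of 16797 genes.

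limma's lmFit and eBayes estimated the shRNA effect, blocking on cell line, and line contrasts came from the same model, whose error holds line-specific responses to the shRNA. The cell line label pairs the arrays, and deviations from the group means correlated (LLC 0.521, AE17 0.156, MC38 0.578). For the shRNA effect, p-values set the mean ratio against the spread of the ratios between lines, which eBayes moderates with all genes. For a line contrast they set the difference against that same error. They do not measure a spread between replicate cultures of a line, since each line and shRNA is 1 culture. Named were all members and the 3 highest and 3 lowest means of each further list. Promoters were shown for up to 4 genes per arm that hold an element, by absolute mean ratio. The fit was also run on data simulated from its own fitted values and variance prior. That run checks the code, not whether the model suits these arrays. Alternatives covered scaling, the filter, probe set choice, each line left out, the block, the variance prior and thresholds.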

Additional observations from a re-analysis of the deposited data

Results flagged for a closer look

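Members whose ratios had opposite signs in 2 lines, each by at least 0.5 log2 units, were picked out, and each differed between LLC and AE17. With 1 pair of arrays per line these differences were not tested. Hspa5 had 1.18 in LLC and -0.98 in AE17, Ddit3 0.94 and -1.03, and Dnajc3 0.65 and -0.59. Chac1 and Pck2 were the reverse, with -0.71 and -0.95 in LLC and 1.92 and 1.16 in AE17. As deposited and relative to all genes the signs stayed, with 1.89 and -0.63 for Hspa5, 1.49 and -0.72 for Ddit3, 1.12 and -0.24 for Dnajc3, -0.37 and 2.29 for Chac1 and -0.47 and 1.57 for Pck2. The median of the ER arm relative to all genes also had opposite signs, 0.44 in LLC and -0.34 in AE17, both smaller than 0.5 log2 units, and in AE17 it was -0.02 as deposited.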

How the results depend on the processing

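For the shRNA, 0 genes were called in every setting run, with a smallest adjusted p of 0.126 to 0.943 in limma, the last without the replicate block. For MC38 over LLC, where 0 genes were called, there were 225 as deposited, 44 with no brightness filter, 42 with a 50th percentile filter, 50 with a trended robust prior, 89 with no shRNA term and 1032 without AE17. For AE17 over LLC there were 103, 1 and 9 as deposited, with that prior and with no shRNA term, and for MC38 over AE17 287, 1 and 100, and 27 with the 50th percentile filter. Values as deposited and values with each array centred were the same relative to all genes. The mean over the lines was then 0.57 for the ATF4 arm, against 0.17 after quantile normalisation. For the ER arm it was 0.40 with an SD of 0.62, against -0.0009, so its sign turned. For the further ATF4 and ER lists the means were 0.56 and 0.50, against 0.16 and 0.10. Past 1 log2 unit, as deposited and relative to all genes, were 17 of 35 members for LLC, 8 for AE17 and 5 for MC38. The shares of all genes past it were 7.83% (LLC), 22.3% (AE17) and 3.42% (MC38). After quantile normalisation 5, 6 and 2 members were past it. There 1.75%, 9.9% and 0.882% of all genes were higher by that much, and 1.81%, 8.71% and 1.7% lower. At 0.5 log2 units, also after quantile normalisation, there were 15, 14 and 8 members in LLC, AE17 and MC38. At that threshold 11.3%, 21.5% and 8.79% of all genes were higher, and 10.1%, 22.9% and 7.39% lower. With each line left out in turn, the mean ran from 0.15 to 0.21 for the ATF4 arm, from -0.22 to 0.17 for the ER arm and from 0.04 to 0.37 for their difference. Cyclic loess, added after the data were seen, moved no arm by more than the SD over lines. The means of 8 of 35 members changed sign as deposited: Ddit3, Asns, Slc3a2, Psat1, Hspa5, Hsp90b1, Dnajb9 and Pdia3. The number of arrays limits every value here, and with 3 lines small shifts could not be called.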
